A study of Mus musculus with 10 samples.

Results

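Levels of 9 genes that carry or end signals from chemoattractant receptors were read in mouse blood neutrophils: Rgs1, Rgs2, Rgs3, Rgs14, Rgs18, Rgs19, Gnai2, Gnai3 and Arrb2. They were chosen by symbol, not by a threshold on their values, from 17097 genes that have a probe set (a group of probes read as 1 value) of their own. Where a gene had several, its brightest probe set by the mean of 10 arrays was used. All 9 lay above the filter on dim genes and were among the 10734 genes tested. The neutrophils came from male C57BL/6 mice, 3 months of age and 9 days after arrival, with no treatment listed, and were caught with magnetic beads through an antibody to Ly6G. Each of 5 animals gave 1 array (mouse 1 to mouse 5). The blood of 5 further animals was combined and then divided into 5 portions before isolation (pool 1 to pool 5), so the pool arrays are technical repeats of 1 mixed blood sample. The purity of the isolated cells lay between 71.5% and 99.5%, with no value per sample in the labels. RNA was amplified in a 2-cycle protocol, and all values are log2 array signals, on which a step of 1 is a doubling. Signals of different probe sets have no common scale, so levels are compared between arrays for 1 gene and never between genes.

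Chemoattractants such as complement fragments, leukotrienes and chemokines act on neutrophils through receptors coupled to inhibitory G proteins. An activated receptor loads the alpha subunit with GTP, and the freed beta and gamma subunits start the movement of the cell. RGS proteins speed up the breakdown of this GTP and so shorten the signal, while beta-arrestins bind receptors that have been phosphorylated and uncouple them from the G protein. Gnai2 and Gnai3 encode inhibitory alpha subunits, Arrb2 encodes beta-arrestin 2, and the 6 Rgs genes encode RGS proteins of several subfamilies.

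Mouse 5 stood apart from the other arrays. Its 95th percentile of signal was 7.46 against 8.72 to 9.25 elsewhere. Across probe sets, which do not count as replicates, Pearson's r of mouse 5 with the other 9 arrays ranged from 0.738 to 0.800, that of mouse 4 with the remaining 8 from 0.900 to 0.939, and that of those 8 with each other from 0.949 to 0.994. The neutrophil genes S100a8 and S100a9 read above the 95th percentile of every array, at 12.67 to 13.29 and 12.28 to 12.80. The mean level of 10 neutrophil markers, relative to each gene's mean over the arrays, was nevertheless -1.92 in mouse 5, against -0.29 to 0.58 on the other 9 arrays, and the part of this in the results for mouse 5 was not tested. Results are therefore given with all mice, without mouse 5 and without mice 4 and 5.

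The member that differed most in level between the groups was Rgs18 (Entrez gene 64214), an RGS protein known from platelets, megakaryocytes and white blood cells. Mice 1 to 5 read 9.07, 9.79, 9.53, 9.84 and 10.98. Pool 1 to 5 read 11.74, 11.48, 11.46, 11.76 and 11.34. All 5 mice lay below all 5 pool arrays, with mouse 5 the closest to them. The mean was 9.84 ± 0.71 (SD, n = 5) in the mice and 11.55 ± 0.18 (SD, n = 5) in the pool, a difference of -1.71 (SE 0.36, 95% interval -2.56 to -0.86) or 3.27-fold. With limma and the error taken from the mice alone, the adjusted p was 0.0741, which misses the threshold of 0.05. Mouse 5 decided this call: in mice 1 to 4 the mean was 9.56 ± 0.35 (SD, n = 4), the difference -2.00 (SE 0.17, 3.99-fold) and the limma adjusted p 0.00766. Without mice 4 and 5 the difference was -2.09 (limma adjusted p = 0.0102). The second probe set of Rgs18 spanned 8.46 to 9.44 among the mice, again without overlap with the pool at 10.55 to 11.52. The error from the mice alone is too small where the pool arrays vary as much as the mice. An ordinary 2-group limma fit, which also uses the spread of the pool, called Rgs18 with all arrays (adjusted p = 0.0257), without mouse 5 (0.000462) and without mice 4 and 5 (0.000353). That fit counts the pool portions as replicates, though they are technical repeats of a single mixed blood sample. Rgs18 varied less in the pool than in the mice (SD 0.18 against 0.71), so these p-values can understate the error between animals.

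Arrb2 (Entrez gene 216869) was the other member whose groups did not overlap, though by 0.01 log2 units only. Mice 1 to 5 read 10.05, 9.86, 10.03, 9.80 and 8.08, and pool 1 to 5 read 10.63, 11.07, 10.85, 10.72 and 10.06. Mice 1 to 4 were within 1.19-fold of each other, mouse 5 was far lower, and pool 5 was the lowest pool portion. The mean difference was -1.10 (SE 0.40, 2.15-fold, limma adjusted p = 0.365) with all mice. It was -0.73 (SE 0.13, 1.66-fold, limma adjusted p = 0.0332) without mouse 5 and -0.69 (limma adjusted p = 0.0290) without mice 4 and 5, with the error from the mice alone. In these mice Arrb2 varied less than in the pool (SD 0.12 against 0.38), and in the 2-group limma fit it did not pass (SE 0.21, adjusted p = 0.0841 without mouse 5, and 0.0876 without mice 4 and 5). A second Arrb2 probe set overlapped between the groups (mice 7.38 to 9.23, pool 8.64 to 9.55), so the separation of Arrb2 rests on 1 of 2 probe sets.

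**Figure D1:**
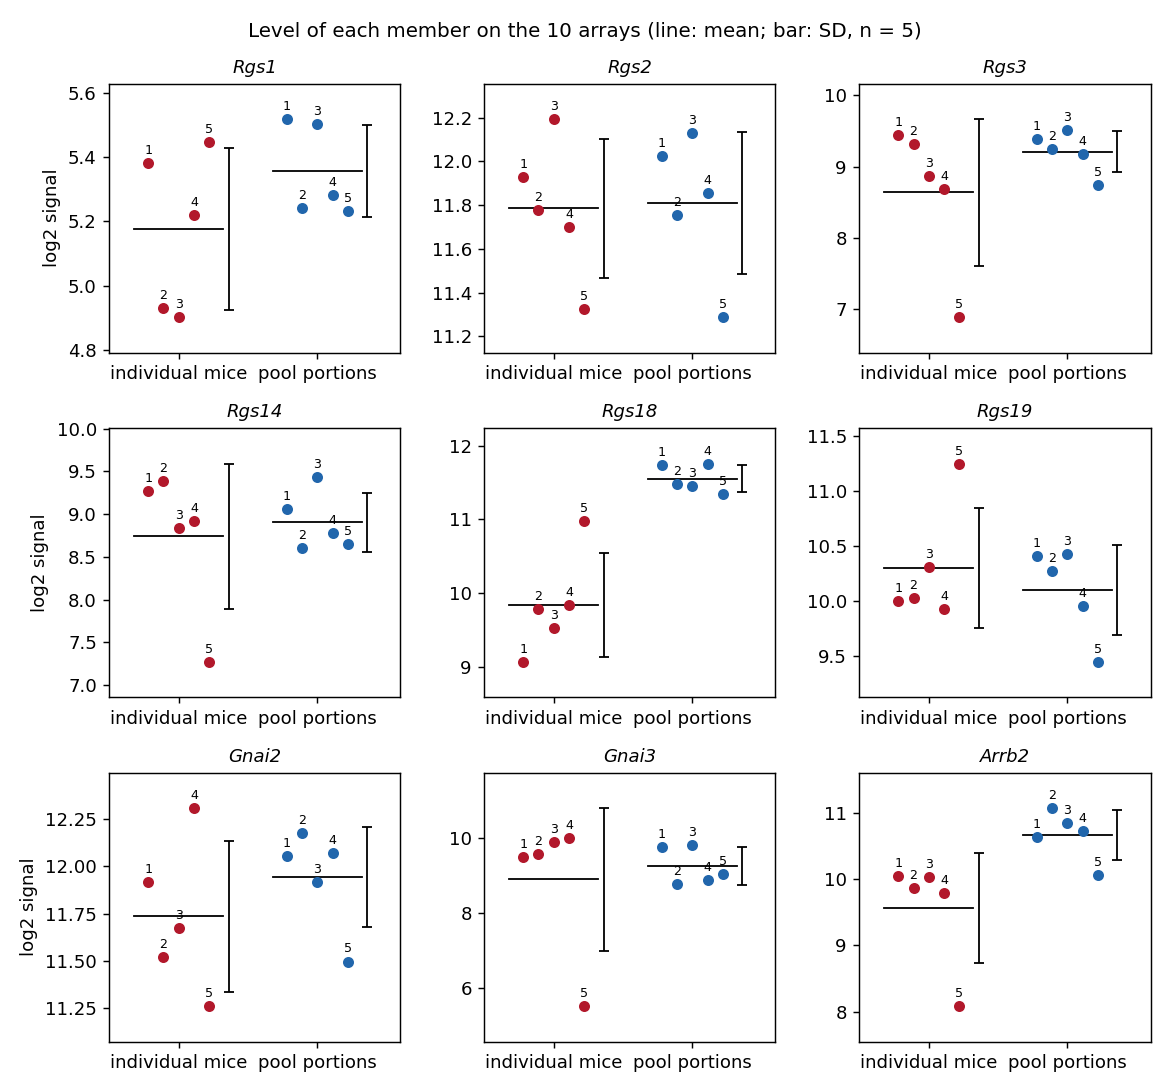
Log2 signal of each of the 9 members (vertical axes, 1 panel per gene, scales differ) in 5 individual mice (red) and 5 pool portions (blue), with the replicate number beside each point, the mean as a line and the SD (n = 5) as a bar. In Rgs18 all mice lie below all pool portions, and in Rgs3, Rgs14, Gnai3 and Arrb2 mouse 5 lies far below the other mice.

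With all arrays, 0 of the 9 members differed in mean between mice and pool at an adjusted p under 0.05 in limma, against 1.64% of all tested genes, and 2 members, Rgs18 and Arrb2, had an unadjusted p under 0.05, against 10.4%. Without mouse 5, 2 of 9 were lower in the mice, against 4.84% of all tested genes, and 0 were higher, against 0.988%. Without mice 4 and 5, 2 of 9 were lower, against 7.85%, and 0 were higher, against 8.82%. The 2 members were Rgs18 and Arrb2 in both sets. In the 2-group limma fit, 1 of 9 was lower in each, Rgs18 alone, against 5.17% and 6.16% of all tested genes. Every mouse lay below every pool array for these 2 of 9 members and for 5.47% of all tested genes, and above it for 0 members and 0.503%. The calls with all arrays were lost when 1 of mice 1 to 4 was left out: without mouse 1, 2 or 4, 0 of all tested genes passed in limma (809, 809 and 817 at an unadjusted p under 0.05), and without mouse 3, 7 did, against 176 with all arrays and 626 without mouse 5. The median difference over the 9 members was -0.21 with all mice and -0.09 without mouse 5, and over all tested genes it was -0.10 and 0.00. Because the 5 pooled animals are not the 5 individual ones, a difference between animals and an effect of pooling the blood cannot be told apart.

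The other 7 members had intervals of the difference that include 0 with all mice. For Rgs2 it ran from -0.63 to 0.58, for Rgs1 from -0.51 to 0.15 and for Gnai2 from -0.83 to 0.42. The intervals were wider for Rgs19 (-0.61 to 1.00), Rgs14 (-1.12 to 0.79), Rgs3 (-1.63 to 0.49) and Gnai3 (-2.00 to 1.28), in which mouse 5 was far from the other mice. In these 4 genes the interval reached past a 2-fold difference in at least 1 direction. Without mouse 5, the difference of Gnai3 was 0.48 (SE 0.16, unadjusted p = 0.0228, limma adjusted p = 0.16, 2-group adjusted p = 0.381), in the opposite direction to the -0.36 with all mice.

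**Figure D2:**
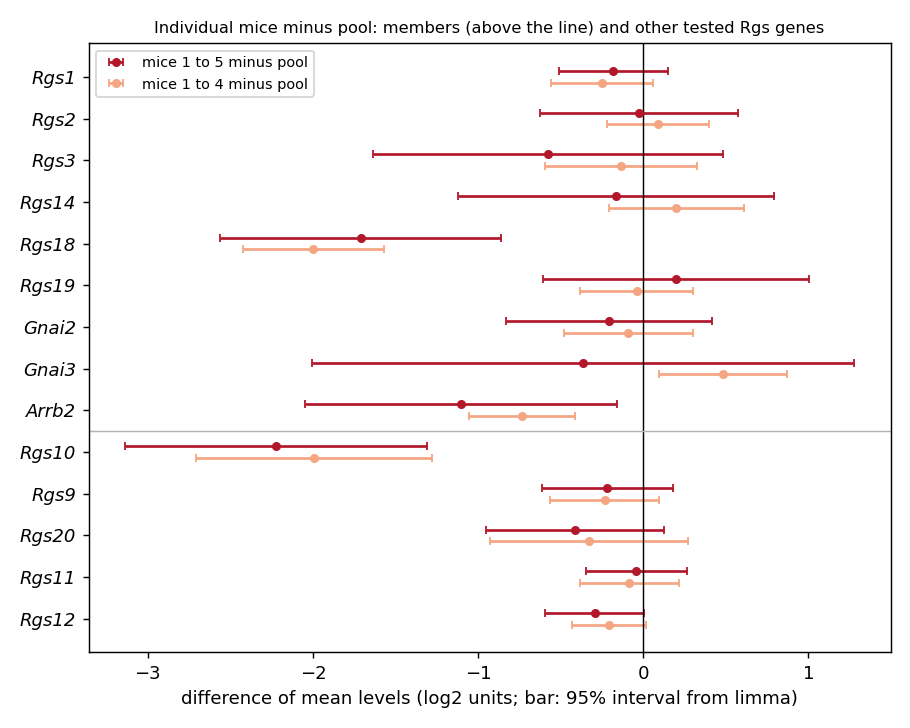
Mean level in individual mice minus mean level in the pool (horizontal axis, log2 units; points with 95% intervals from limma) for the 9 members and, below the line, the 5 other tested Rgs genes, with all mice (dark) and without mouse 5 (light). Rgs18, Rgs10 and Arrb2 have intervals, from the spread of the mice alone, that lie below 0 in both sets.

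Genes of platelets stood in the same direction as Rgs18. Platelets are cell fragments of blood that carry RNA and can bind to neutrophils. Of 14 platelet markers in the list, 10 had a probe set. In all 10 every mouse lay below every pool array, against 5.47% of all tested genes. The mean level of the 10 markers, on the same relative scale as the neutrophil markers, was -1.85 to -0.34 in the mice and 0.80 to 1.13 in the pool. All 10 were above the filter in both groups' means. Gp6, a collagen receptor of platelets, read 4.68 to 6.24 in the mice and 6.70 to 7.44 in the pool. Pf4, a platelet chemokine, read 11.54 to 12.28 in the mice against 13.01 to 13.35 in the pool. Gp9, a chain of the platelet receptor for von Willebrand factor, read 7.00 to 9.57 against 10.86 to 11.33. With limma, 4 of the 10 (Pf4, Gp5, Gp9 and Gp6) were lower in the mice with all arrays, 0 of these 4 when any 1 of mice 1 to 4 was left out, and 10 of 10 without mouse 5, also in the 2-group fit, with a median difference of -1.96 and -1.74. The part of platelets in the difference of Rgs18 and Arrb2 was not tested. Within the mice the order of Rgs18 was not that of the platelet markers: mouse 5 was the highest mouse for Rgs18 and had the second lowest platelet level, at -1.38, against -1.85 in mouse 3. Of the single markers, Pf4 and Gp1bb were also highest among the mice in mouse 5, at 12.28 and 12.15. In these bulk samples fewer cells of a type and less RNA per cell cannot be told apart.

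**Figure D3:**
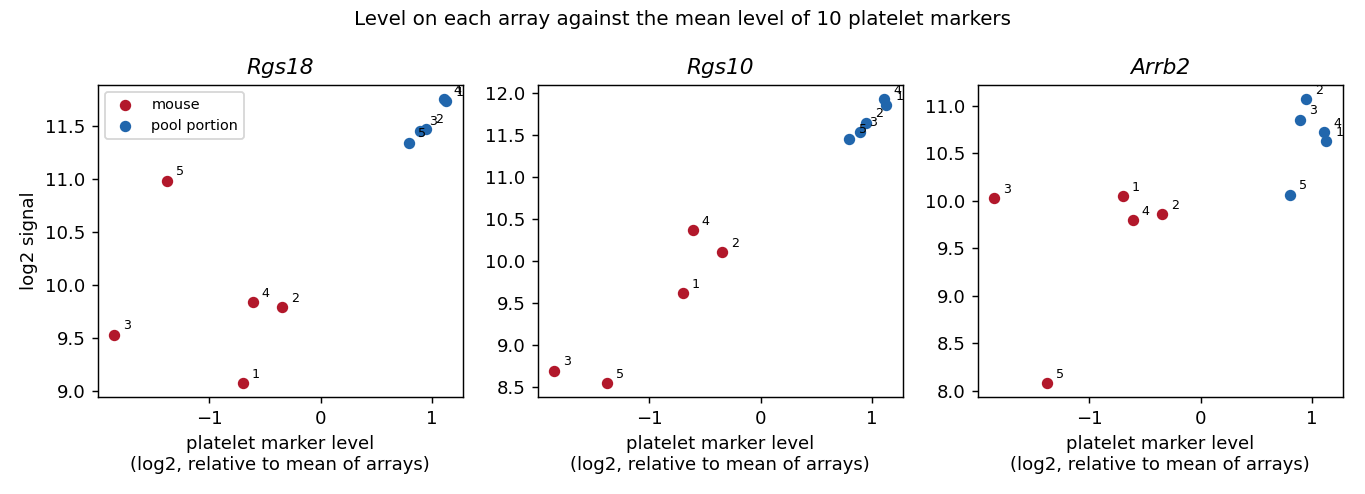
Log2 signal of Rgs18, Rgs10 and Arrb2 (vertical axes, scales differ) against the mean level of 10 platelet markers (horizontal axis, log2 units relative to each gene's mean over the 10 arrays), 1 point per array with its replicate number. The pool portions (blue) lie at 0.80 to 1.13 on the horizontal axis and the mice (red) at -1.85 to -0.34. Mouse 5 is the highest mouse in Rgs18, though below all pool portions, and the lowest mouse in Rgs10 and Arrb2.

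The study was designed to set the spread between animals against that of the procedure. Of the 9 members, 5 varied more between the mice than between the pool arrays at an adjusted p under 0.05 (limma moderated variances, 5 mice against 5 pool arrays), against 66.8% of all tested genes. They were Gnai3, Rgs3, Rgs14, Rgs18 and Arrb2. Without mouse 5 the count was 0 of 9 in the same test, against 20.3% of all tested genes, and 0 of 9 had an unadjusted p under 0.05, against 33.8%. Without mice 4 and 5 it was again 0 of 9, against 0.708%, and 0 of 9 had an unadjusted p under 0.05, against 8.93%. The median SD of the members was 0.71 between mice and 0.33 between pool arrays, and 0.24 between mice 1 to 4, while over all tested genes these medians were 0.57, 0.23 and 0.33. The SD between mice exceeded that between pool arrays in 8 of the 9 members with all mice and in 4 of the 9 without mouse 5. Over all tested genes the shares were 93.0% and 70.9%. A test on absolute deviations from the group median (Levene type, in limma), which weighs a single distant array less, called 0 of 9 members and 0 of all tested genes, with 0 and 836 at an unadjusted p under 0.05. Its adjusted p-values took both directions into account, while the main variance test looked only for a larger spread between mice. A plain F test called 3 members, without Rgs14 and Arrb2, and 3760 of the 10734 tested genes.

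**Figure D4:**
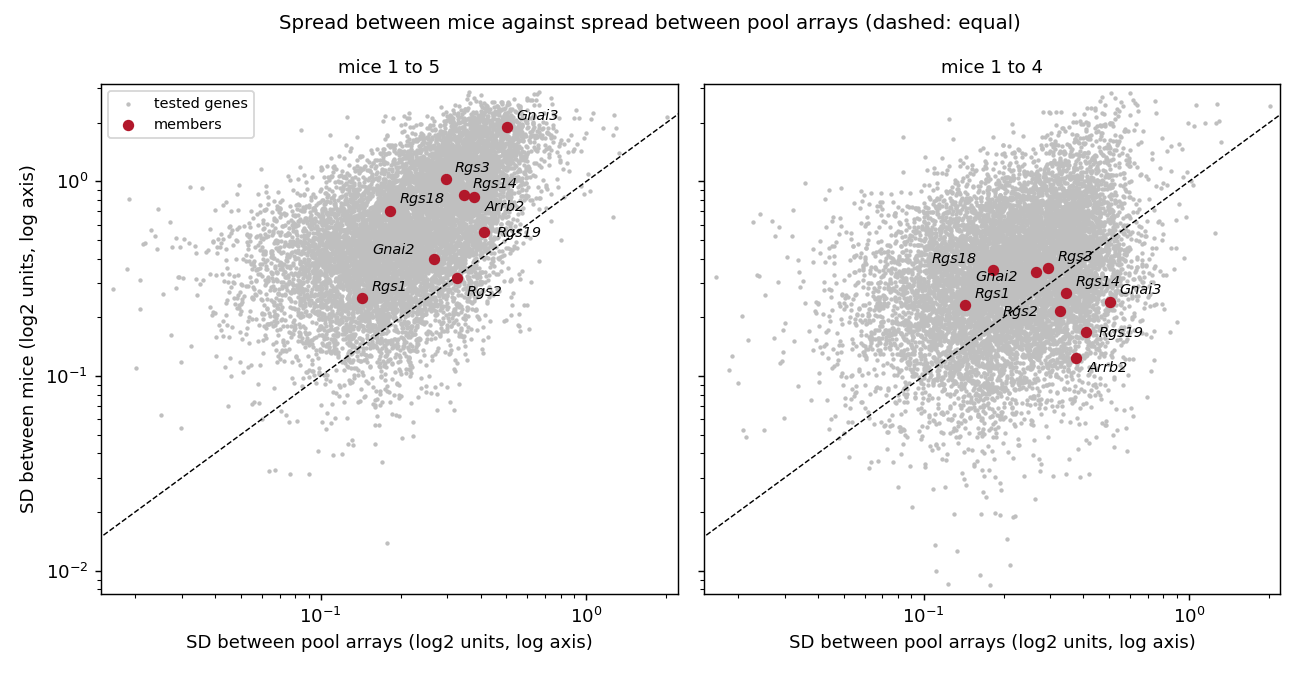
SD between mice (vertical axis) against SD between pool arrays (horizontal axis), both in log2 units on log axes, for all 10734 tested genes (grey) and the 9 members (red), with all mice (left) and without mouse 5 (right). The dashed line marks equal spread: 8 members lie above it on the left and 4 on the right.

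Among the G protein subunits, Gnai3 (Entrez gene 14679) had the largest spread between mice of all members. Mice 1 to 5 read 9.50, 9.58, 9.89, 10.00 and 5.51, and pool 1 to 5 read 9.77, 8.78, 9.83, 8.89 and 9.03. Mice 1 to 4 were closely grouped and mouse 5 lay below every other array, so the mice spanned 22.6-fold with mouse 5 and 1.42-fold without it. Its SD was 1.91 between the mice and 0.50 between the pool arrays (variance ratio 21.5 after moderation, limma adjusted p = 0.000309), and 0.24 in mice 1 to 4. Gnai2 (Entrez gene 14678), which encodes the inhibitory alpha subunit best known from neutrophil migration, ranged from 11.26 to 12.31 among the mice and from 11.50 to 12.18 among the pool arrays. The groups overlapped, and mouse 4 was the highest and mouse 5 the lowest of the 10 arrays. Its SD was 0.40 in the mice and 0.27 in the pool (limma adjusted p = 0.228). Without pool 5, the lowest pool array, Gnai2 passed (adjusted p = 0.0111).

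Of the Rgs genes, Rgs3 and Rgs14 followed the pattern of Gnai3 on a smaller scale. Rgs3 (Entrez gene 50780), which acts on several classes of alpha subunits, read 9.44, 9.31, 8.86, 8.69 and 6.88 in the 5 mice in order, and 9.39, 9.24, 9.51, 9.18 and 8.74 in the 5 pool arrays. Mouse 5 was the lowest array, and the SD between mice was 1.03 with it (limma adjusted p = 0.0033) and 0.36 without it (adjusted p = 0.565). Rgs14 (Entrez gene 51791), a larger RGS protein that also binds inactive inhibitory alpha subunits, read 9.27, 9.39, 8.84, 8.92 and 7.27 in mouse 1 to mouse 5, with 9.06, 8.61, 9.43, 8.77 and 8.65 for the pool. It too was lowest in mouse 5, with an SD of 0.85 (limma adjusted p = 0.0144) and of 0.27 without mouse 5 (adjusted p = 0.794). In Rgs18 and Arrb2, the SD between mice was 0.71 and 0.83 with mouse 5 (limma adjusted p = 0.0162 and 0.0199) and 0.35 and 0.12 without it (adjusted p = 0.50 and 0.978).

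Rgs2 (Entrez gene 19735), an RGS protein that prefers alpha subunits of the Gq class and that is induced rapidly in many stimulated cells, had nearly equal spread in both groups. Mice 1 to 5 read 11.93, 11.78, 12.19, 11.70 and 11.32, and pool 1 to 5 read 12.03, 11.75, 12.13, 11.86 and 11.29. The groups overlapped almost completely, with means of 11.79 ± 0.32 and 11.81 ± 0.33 (SD, n = 5 each) and a limma adjusted p of 0.475 for the variance ratio. Rgs19 (Entrez gene 56470), which acts mainly on inhibitory alpha subunits, was the only member for which mouse 5 was the highest of the 10 arrays. The mice read 9.99, 10.03, 10.31, 9.92 and 11.25, and the pool arrays 10.40, 10.27, 10.43, 9.96 and 9.45. Its spread did not pass the test with all arrays (SD 0.55 and 0.41, limma adjusted p = 0.17). It passed without pool 5 (adjusted p = 0.0246), after quantile normalization (0.0026) and with its other probe set (0.00157 with the probe set of median mean for each gene, 0.000931 with x_at and s_at probe sets left out). Rgs1 (Entrez gene 50778), an RGS protein best known from B cells, was close to the lower limit of the tested range, which began at a mean of 4.58. It spanned 4.90 to 5.45 among the mice, against 5.23 to 5.52 in the pool (limma adjusted p = 0.15). The B cell markers, of which 9 were tested, had a mean level of -2.59 in mouse 4, -1.56 in mouse 5 and 0.88 to 1.59 in mice 1 to 3, while Rgs1 was lowest in mice 2 and 3. The part of B cells in the level of Rgs1 was not tested.

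How far mouse 5 lay from the other mice depended on the probe set, and in Rgs19 and Rgs3 so did its direction. The 9 members had 19 probe sets with their symbol alone, and 7 members had at least 2 above the filter. In Rgs19 the probe set used read 11.25 in mouse 5 against 9.92 to 10.31 in mice 1 to 4, and the other read 5.28 against 9.33 to 9.60. The first is of a type (x_at) whose probes can match further transcripts. In Rgs3 the probe set used read 6.88 against 8.69 to 9.44, another read 3.28 against 3.88 to 5.74, and another 6.03 against 5.08 to 5.41. The latter 2 were dim, with means of 4.69 and 5.37 where the filter lay at 4.58. In Gnai2 the probe set used read 11.26 in mouse 5 against 11.52 to 12.31, and the other read 7.34 against 11.07 to 11.41. In Rgs2 they read 11.32 against 11.70 to 12.19, and 7.77 against 10.40 to 11.41. Thus Rgs2, Gnai2 and Rgs19 each had a further probe set in which mouse 5 was far below mice 1 to 4. In Gnai3 both probe sets were low in mouse 5, at 5.51 and 7.42, and the second, also of type x_at, was nearly as low in mouse 4 (7.67).

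Between probe sets of 1 gene, the difference of mouse 5 from the median of mice 1 to 4 varied by more than 2 log2 units in 5 of these 7 members, against 35.6% of the 3454 genes with at least 2 probe sets above the filter. The 5 were Rgs2, Rgs3, Rgs19, Gnai2 and Gnai3, and for Rgs18 and Arrb2 the differences between probe sets were 0.87 and 0.34. For mouse 4, set against mice 1 to 3, the same share of all genes was 4.75%. With the probe set of median mean for each gene, Rgs2, Rgs19 and Gnai2 also varied more between mice (limma adjusted p = 0.000899, 0.00157 and 0.000451) and Rgs18 did not (adjusted p = 0.283). For an even number of probe sets, this choice took the dimmer of the middle 2.

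**Figure D5:**
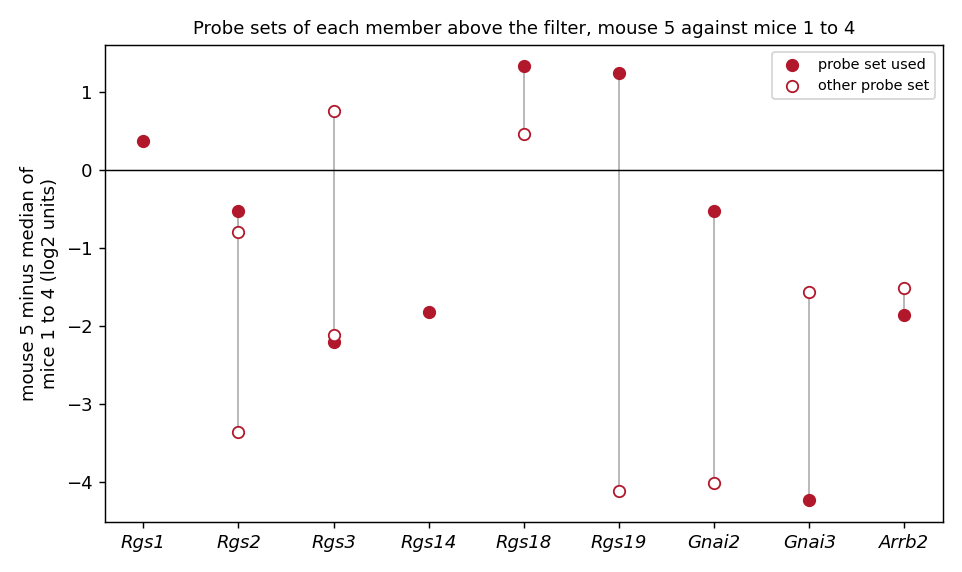
Signal in mouse 5 minus the median of mice 1 to 4 (vertical axis, log2 units) for each probe set of the 9 members above the filter, with the probe set used filled and others open, and a grey line joining probe sets of 1 gene. The values of Rgs19 are 1.24 and -4.12, and those of Gnai2 are -0.53 and -4.02.

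Of 15 further Rgs genes listed, 13 had a probe set and 5 had a mean above the filter and were tested. The 8 not tested read 2.61 to 5.86, and at most 4.35 outside mouse 5. Rgs10, an RGS protein known from platelets and white blood cells, was the 1 that differed in mean. Mice 1 to 5 read 9.61, 10.10, 8.69, 10.36 and 8.54, and pool 1 to 5 read 11.86, 11.64, 11.54, 11.92 and 11.45. The groups were far apart, by -2.22 (SE 0.39, 4.66-fold, limma adjusted p = 0.0429), and by -1.99 without mouse 5 (adjusted p = 0.0198). Leaving out any 1 of mice 1 to 4 ended this call (adjusted p = 0.137 to 0.214). Its 2 lowest mice, 3 and 5, were also the 2 lowest for the platelet markers. The highest differed: mouse 4 for Rgs10, and mouse 2 for the platelet markers (-0.34, against -0.61 in mouse 4). The part of platelets in the difference of Rgs10 was not tested. Rgs10 and Rgs20 varied more between mice (limma adjusted p = 0.00769 and 0.00687), and Rgs20 alone of the 5 did so without mouse 5 (adjusted p = 0.0188), with 5.08 in mouse 4 and 6.04 to 6.45 in mice 1 to 3. Rgs9, Rgs11 and Rgs12 passed neither test and had mean differences of -0.22, -0.04 and -0.29.

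In the assembly GRCm38.p6, Rgs2, Rgs13, Rgs1, Rgs21 and Rgs18 follow one another with no other protein-coding gene between them. Of the 3 members of this cluster, Rgs18 alone lay below every pool array in every mouse. Rgs18 had a mean difference of -1.71, Rgs2 of -0.03 and Rgs1 of -0.18. The intervals of Rgs2 and Rgs1 included 0, and Rgs1 read close to the filter. Rgs13 was not above the filter and Rgs21 was matched to no probe set here.

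Further genes of the pathway were read from lists of genes. Over all tested genes, 66.8% varied more between mice with all arrays and 20.3% without mouse 5. In mean, 1.64% of all tested genes differed with all arrays in limma, and 4.84% were lower in the mice without mouse 5. Of 7 tested alpha subunits besides the members, 6 varied more between mice and 1 did without mouse 5, while 1 was lower in mean in the mice. Gna13, Gnal and Gnaq had SDs between mice of 1.08, 0.93 and 1.14 and mean differences of -0.43, -0.03 and -0.86. The 1 that was lower was Gnaz, an inhibitory alpha subunit known from platelets, at 4.91 to 6.54 among the mice against 7.43 to 8.28 in the pool (difference -2.29, SE 0.29, limma adjusted p = 0.0221, or 0.0917 to 0.153 without 1 of mice 1 to 4), and the 1 that varied without mouse 5 was Gna11. Of 15 beta and gamma subunits, 12 varied more between mice and 2 did without mouse 5 (Gnb5 and Gngt2). In mean, 0 passed in limma, with 2 at an unadjusted p under 0.05, and 1 was lower without mouse 5. This was Gng11, a gamma subunit, at 9.39 to 10.35 in mice 1 to 4, 11.78 in mouse 5 and 11.15 to 11.91 in the pool (difference without mouse 5 -1.54, adjusted p = 0.0122). As for Rgs18, mouse 5 was the highest mouse for Gng11. It lay within the pool range for Gng11, but below every pool array for Rgs18. Gng5 and Gnb2 read 8.17 and 6.54 in mouse 5 and at least 10.53 and 10.69 in mice 1 to 4.

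Among effectors of G proteins, 5 of 12 varied more between mice and 2 did without mouse 5 (Plcb4 and Adcy7). Over all tested genes the shares were 66.8% and 20.3%. In mean, 2 effectors were lower in the mice, or 3 without mouse 5, when Plcb1 was added. The 2 were the adenylyl cyclase genes Adcy9 and Adcy6, whose products make cyclic AMP. Adcy9 read 6.39 to 6.89 among the mice against 7.90 to 8.68 in the pool (difference -1.77, SE 0.24, limma adjusted p = 0.0244), and Adcy6 read 4.61 to 5.32 and 5.70 to 5.88 (-0.90, SE 0.15, adjusted p = 0.0342). Mouse 5 lay within the range of the other mice for Adcy9 and was the highest mouse for Adcy6. Leaving out any 1 of mice 1 to 4 ended both calls (adjusted p = 0.129 to 0.177 and 0.144 to 0.196). Pik3r5 and Pik3cg, the adaptor and catalytic subunits of the kinase that beta and gamma subunits activate, and Prex1, which they switch on to activate Rac, had mean differences of -0.25, -0.18 and -0.62 and did not pass. Of 9 receptors for chemoattractants and related signals, 5 varied more between mice, 1 did without mouse 5 (S1pr1), and 0 differed in mean in limma, with 0 at an unadjusted p under 0.05. Fpr2, a formyl peptide receptor, read 11.04 to 11.77 among the mice against 10.91 to 11.67 in the pool, while Cxcr2 and Ccr1 read 6.67 and 6.18 in mouse 5 and at least 9.81 and 10.48 in mice 1 to 4.

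The counts of this paragraph stand beside 66.8% of all tested genes more variable between mice with all arrays, and 20.3% without mouse 5. Of 4 receptor kinases and arrestins besides Arrb2, 3 varied more between mice (Grk6, Arrb1 and Grk5) and 0 did without mouse 5. In mean, 0 passed in limma, with 1 at an unadjusted p under 0.05, which was Arrb1, the gene for beta-arrestin 1. The mice, at 5.91 to 8.89, did not overlap the pool, at 9.32 to 9.84 (difference -1.72, SE 0.51, adjusted p = 0.216). Grk6 and Grk5 had mean differences of -0.36 and -0.61. Of 4 further regulators of alpha subunits, 2 varied more between mice and 0 without mouse 5, and 0 differed in mean, with 0 at an unadjusted p under 0.05. Gpsm3, Ric8a and Ric8b had mean differences of -1.27, -0.03 and 0.04. The genes Gnaz, Gna11, Gnb5, Gngt2, Plcb4, Plcb1, Adcy7, Adcy9, Adcy6 and S1pr1, and the platelet and other marker genes, were named after their values were seen.

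Genes with a profile like that of a member were sought by the root mean square difference between profiles centred on their mean over the 10 arrays. The pool arrays share 1 sample, and mouse 5 weighs heavily in this measure. For Rgs18 the 3 nearest of all tested genes were Ltbp1 at 0.15, Oip5os1 at 0.20 and Dusp3 at 0.27 log2 units, where the median gene was at 1.08. Without mice 4 and 5 they were Stom, Tmbim1 and Ltbp1, at 0.11 to 0.13. For Arrb2 they were Trafd1, Fth1 and Was at 0.21 to 0.24 over the 10 arrays, and Cox6a1, Eloc and Nfe2 at 0.11 to 0.13 without mice 4 and 5. For Gnai3 they were Sos2, Atg3 and Cpd at 0.11 to 0.14, and Atg3, Top1 and Evi2a at 0.08 without mice 4 and 5. The nearest genes over the 10 arrays were Actr3, Ppp2r5c and Tspan13 for Rgs2, Stard3, Inafm1 and Tmc6 for Rgs3, and Dhx58, Yipf1 and Purg for Rgs14. They were Mpzl1, Acad12 and Cep76 for Rgs1, Ceacam10, Washc2 and Ube2d2a for Rgs19, and Alox5ap, Gramd1b and Gpr107 for Gnai2.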

How the data were processed

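The values deposited by the authors are on a log2 scale after RMA, per the submitters' processing notes, which name no other tool. The RMA version, a genome build for the array and joint or separate processing of the arrays are not given in the sources used here. Of 45141 probe sets, 104 controls and those with several symbols or none were left out. The 28898 with 1 symbol gave 17097 genes, each by its probe set with the highest mean, and tests ran on the 10734 whose mean exceeded 4.58 (the median probe set). Symbols come from the platform annotation, and no genome positions are given. Precision is limited by there being 5 arrays a group, and the spread of the pool arrays is technical, as they share a single mixed blood sample.

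Each gene's variance between mice was divided by its variance between pool arrays, which limma 3.58.1 in R 4.3.3 moderated along signal, and tested one-sided. Means were compared in limma with the error from the mice alone. This leaves out the error of the pool mean: on simulated data the test called too many unchanged genes where mice and pool varied alike, and few where the mice varied more. A 2-group limma fit was therefore also run without mouse 5 and without mice 4 and 5, chosen after the results were seen. It counts the pool arrays as replicates, though they are technical repeats of a single mixed blood sample. The Benjamini-Hochberg method ran over all tested genes, with a threshold of 0.05. Plots were drawn in matplotlib 3.10.9 (Python 3.11.15).

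The members, lists and tests were chosen with earlier results of these data known. The rule for named genes takes all members, every other tested Rgs gene, the 3 genes of highest mean in each pathway list and the 3 genes most alike to each member. The second likeness, without mice 4 and 5, is printed for 3 members only.

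Alternatives were other filters, normalizations, probe sets and forms of both tests, each array left out in turn, and mice 4 and 5 left out. Leaving out probe sets of the types x_at and s_at was chosen after seeing the data. Neutrophil, T cell, NK cell, monocyte and erythroid marker levels were also read. They were -1.92 to 0.58, -0.29 to 0.19, -0.34 to 0.20, -1.12 to 0.23 and -1.13 to 0.71 in the mice, and -0.29 to 0.52, 0.00 to 0.14, -0.01 to 0.18, 0.10 to 0.71 and -0.36 to 1.06 in the pool. The eosinophil and the basophil and mast cell lists had 1 tested gene each, Siglecf and Gata2, with mean differences of -0.14 and -0.68.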

Additional observations from a re-analysis of the deposited data

Results flagged for a closer look

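In 4 members, 1 mouse was far from the other 4 by Dixon's criterion for groups of 5, and it was mouse 5 in each. Gnai3 read 5.51 in mouse 5 against 9.50 to 10.00, Arrb2 read 8.08 against 9.80 to 10.05, and Rgs14 read 7.27 against 8.84 to 9.39. Rgs19 read 11.25 against 9.92 to 10.31, and passed barely, with a gap of 0.7105 of the range where the criterion is 0.71. The other probe set of Rgs19 lay in the opposite direction, at 5.28 in mouse 5 against 9.33 to 9.60. Over all tested genes the same criterion marked mouse 5 in 18.5%, and the lowest value of the 10 arrays was that of mouse 5 in 43.8%. The criterion marks about 1 in 20 groups by chance, and 18 groups (9 members in mice and pool) were examined.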

How the results depend on the processing

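Across the 21 alternatives run on each, the mean difference of Rgs18 stayed between -2.09 and -1.52 and that of Arrb2 between -1.25 and -0.59. With mice 4 and 5 left out, 76 genes and 0 members varied more between mice, 1790 genes and 2 members differed in mean, the log2 variance ratios of Rgs2, Rgs3, Rgs14, Rgs19, Gnai2, Gnai3 and Arrb2 were -1.22, -0.28, -0.55, -2.25, -1.19, -1.98 and -3.63, and the mean differences of Rgs2, Rgs14 and Gnai3 were 0.16, 0.26 and 0.40. Genes more variable between mice numbered 10967 with no filter and 4432 with a filter at the 75th percentile. The number of genes tested also differed between these filters. The log2 variance ratio of Rgs2, 0.04 with the main filter, was -0.16 and -0.10. The plain F test called 3760 genes and 3 members (Rgs2 ratio -0.065), and the Levene type 0 genes and 0 members, with 836 and 0 at an unadjusted p under 0.05 in limma (Rgs2 difference in deviation -0.0032). Quantile normalization left 73 genes with a mean difference and turned those of Rgs2, Rgs14 and Gnai2 to 0.24, 0.20 and 0.0086. It made Rgs1, Rgs19 and Gnai2 more variable between mice (limma adjusted p = 0.0418, 0.0026 and 0.0052) and ended the calls of Rgs14 and Arrb2 (0.163 and 0.39). The probe set with the median mean turned the mean differences of Rgs3 and Rgs19 to 0.10 and -0.41. Leaving out x_at and s_at probe sets, chosen after seeing the data, gave -0.41 for Rgs19 and made its variance pass (limma adjusted p = 0.000931). The cause of these changes was not tested.

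Leaving out 1 array at a time gave 2176 to 7594 genes and 0 to 7 members more variable between mice, and 0 to 626 genes and 0 to 2 members with a mean difference in limma. The log2 variance ratios ranged from -1.13 to 2.09 (Rgs2), -0.77 to 3.01 (Rgs14), -2.31 to 2.70 (Rgs19), -0.21 to 3.20 (Gnai2), -1.55 to 4.79 (Gnai3) and -3.08 to 3.98 (Arrb2), and the mean differences from -0.16 to 0.090 (Rgs2), -0.33 to 0.20 (Rgs14), -0.039 to 0.29 (Rgs19) and -0.64 to 0.48 (Gnai3). The 2-group fit called 288 genes and 1 member, and, chosen after seeing the data, 597 genes and 1 member without mouse 5 and 1034 genes and 1 member without mice 4 and 5, where the mean differences are those of the same arrays above. With the replicate number as a block (replicate block) it called 188 genes and 0 members, with 2 members at an unadjusted p under 0.05 (Rgs18 adjusted p = 0.0895 in limma). The numbers do not pair the samples: deviations of same-numbered arrays correlated at -0.26 to 0.50, and 1 of 5 mice correlated best with its own number.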
